A study of Mus musculus with 17 samples.

Results

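The comparison described here is that of mice given repeated doses of pentylenetetrazole (PTZ) and then left for a week, against mice that never received PTZ, with both genotypes of the study in a single fit. Its members were the 12 Sal and PTZ0 libraries of the 17 in the series, chosen by their labelled treatment alone, 6 Sal and 6 PTZ0, with 3 of each in either genotype. PTZ is a convulsant that blocks GABA-A receptors. PTZ0 mice had received 45 mg/kg PTZ on alternate days and, a week after the last of these doses, saline. Sal mice had no kindling doses and were given saline on the day of collection. Kindled here means that a mouse had received the repeated doses, in either genotype. Whether seizures had built up in a given mouse is not in the counts. The study reports that seizures built up in control mice under the doses, whereas no CBP-ifKO mouse entered the progressive stage. By that report PTZ0 joins Control mice whose seizures built up with CBP-ifKO mice that had received the doses only. Tissue was collected 45 min after that final injection, so no mouse of either group had met PTZ on that day. CBP-ifKO mice carried floxed Crebbp alleles together with creERT2, a tamoxifen-dependent recombinase, under the Camk2a promoter, which acts in excitatory forebrain neurons and leaves other cells with intact CBP, the lysine acetyltransferase that Crebbp encodes. Control mice were littermates which, by the study's methods, lacked creERT2, whereas the labels' descriptions name Camk2a_creERT2 for the Control libraries too. All were males aged 3 to 6 months on a C57BL/6J background by the study's methods (C57BL/6 in the labels), all had been given tamoxifen, and each library came from a single animal.

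Kindling is the gradual strengthening of seizures by repeated doses of a convulsant that at first do little, and the lowered threshold outlasts the doses by weeks. A seizure switches on immediate early genes, which encode transcription factors such as Fos and Junb and synaptic proteins such as Arc, and their transcripts decay within hours. Later waves bring neuropeptides, growth factors and their processing enzymes. Chronic epilepsy models can also show reactive astrocytes, activated microglia and altered receptors and channels. In each hippocampus the RNA of all these cells was measured together, so fewer cells of a type and less RNA per cell cannot be told apart.

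The 12 libraries held between 5831992 and 18735643 counts, the lowest and the highest both in CBP-ifKO Sal. Crebbp read 1824 to 2415 normalized counts (counts divided by library size factors) in the 6 Control and 1084 to 1337 in the 6 CBP-ifKO libraries, and the fitted change with kindling was -0.02 on the log2 scale. Reads of Esr1, part of which the creERT2 transgene shares, were at 41 to 65.7 in Control and 703 to 941 in CBP-ifKO. The defining markers of dentate granule cells (10 of 10), CA1 pyramidal cells (9 of 9) and interneurons (16 of 16) were all detected. One library in each of the 4 groups was rich in choroid plexus, the tissue that secretes cerebrospinal fluid. The 12 choroid markers, none of them at 0, summed to 20217 in Control Sal replicate 2, 75201 in CBP-ifKO Sal replicate 1, 41327 in Control PTZ0 replicate 2 and 57344 in CBP-ifKO PTZ0 replicate 3, against 2549 to 3960 in the other 8. Both Control groups were sequenced on lane 3, whereas CBP-ifKO Sal was on lane 4 and CBP-ifKO PTZ0 on lane 5, so that lane and kindling cannot be told apart within CBP-ifKO.

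**Figure D1:**
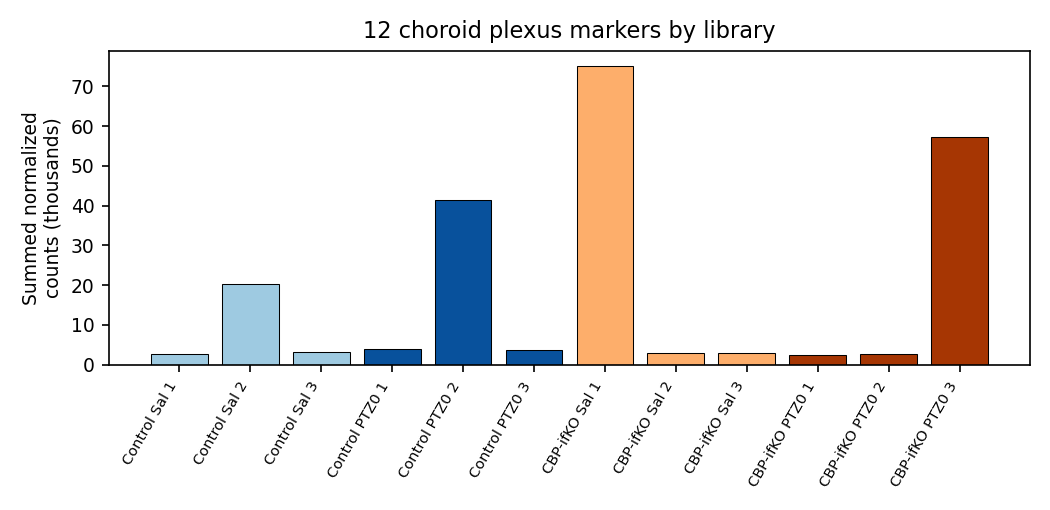
Summed normalized counts of 12 choroid plexus markers (vertical axis, starting at 0) in each library, by group. One bar in each of the Sal and PTZ0 groups stands far above the rest, at 20217 to 75201, and the other 8 lie between 2549 and 3960.

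DESeq2 called no gene between PTZ0 and Sal. Of 38090 genes tested with the Wald test of DESeq2, with genotype as a term, 0 (0%) had an adjusted p under 0.05. At an unadjusted p under 0.05 there were 520 genes (1.37%), of which 217 (0.570%) were higher and 303 (0.795%) lower in PTZ0. Other tools and filters gave between 0 and 62 calls. The quasi-likelihood test of edgeR without a filter called 8 genes higher (0.0210%) and 54 lower (0.142%), and the same test on genes with at least 10 counts in 2 libraries called 0 of 20465, with 722 at an unadjusted p under 0.05 and a lowest adjusted p of 0.89. Without the filter every gene received the spread of the trend and not its own, which holds for each unfiltered edgeR call given below. With that filter in DESeq2, 3 of 20415 genes were called, all lower (0.0147%): Gm26397, Gm25776 and Junb. A fit with 1 surrogate variable called the same 3 genes, also lower (0.00787%), and TMM size factors called Gm26397 alone (0.00263%).

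The difference was small for almost every well measured gene. Among 13089 genes averaging 50 or more normalized counts, the 95% interval of the fold change lay within 1.5-fold in either direction for 12839 (98.1%), and the median SE of the log2 fold change was 0.08. Only 14 of these genes had a fitted change of at least 1.5-fold, and 5 of at least 2-fold. Within Control the PTZ0 and Sal libraries did not overlap for 553 higher (4.22%) and 482 lower (3.68%) of these genes, and within CBP-ifKO for 459 higher (3.51%) and 302 lower (2.31%). In 29 of them (0.222%) the PTZ0 libraries were above the Sal libraries without overlap in both genotypes, and in 23 (0.176%) they were below. Regardless of genotype, every PTZ0 library was above every Sal library for 5 genes (0.0382%) and below for 6 (0.0458%). The former were Arhgap35, Plxna4os2, Mrpl50, Ctbp2 and Nup155, and the latter Scrt1, Mtcl1, Tmem14c, Gm49411, Eif2s3x and Tmem38b, with unadjusted p values from 0.000261 to 0.0737. Scrt1, a zinc finger repressor of neurons, read 304, 335 and 333 in Control Sal, 299, 413 and 297 in CBP-ifKO Sal, 277, 265 and 263 in Control PTZ0 and 284, 284 and 208 in CBP-ifKO PTZ0, a difference of -0.31 in log2 units (SE 0.10, DESeq2 adjusted p = 1).

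Of the immediate early genes, most had a log2 fold change below 0 a week after kindling. Of the 25 immediate early genes listed, 23 averaged 10 or more normalized counts, 17 of them (73.9%) had a log2 fold change below 0, against 47.0% of all 18315 such genes (the other 53.0% were above 0), and their median was -0.07 against 0.01. DESeq2 called 0 of them, 4 were lower at an unadjusted p under 0.05 (1.34% of all genes with that mean) and 1 was higher (0.945%). Junb was called with the count filter, with 1 surrogate variable and by unfiltered edgeR, and the latter also called Arc (adjusted p = 0.00207) and Fos (adjusted p = 0.0144). The median was -0.05 within Control and -0.10 within CBP-ifKO. It lay between -0.12 and -0.04 when single libraries were left out, the latter without Control Sal replicate 3 or Control PTZ0 replicate 1, and was -0.13 without the 4 libraries rich in choroid plexus. By library, the median log2 difference of these genes from the Sal mean of their genotype was -0.18, -0.04 and 0.15 in Control Sal. It was -0.08, -0.03 and -0.05 in Control PTZ0. In CBP-ifKO it was -0.05, 0.06 and 0.08 in Sal and -0.05, -0.08 and -0.19 in PTZ0, so the Sal and PTZ0 libraries overlapped.

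The 250 bases before the start sites of Junb and Fos, the members with the lowest unadjusted p, are shown from RefSeq on GRCm38.p6, because both genes are known to respond to CREB, of which CBP is a coactivator. Capitals mark TGACG, the core of a CREB site, searched on both strands as TGACG and CGTCA. The Junb window is chr8:84978749-84978998 on the minus strand and the Fos window chr12:85473640-85473889 on the plus strand.
Junb: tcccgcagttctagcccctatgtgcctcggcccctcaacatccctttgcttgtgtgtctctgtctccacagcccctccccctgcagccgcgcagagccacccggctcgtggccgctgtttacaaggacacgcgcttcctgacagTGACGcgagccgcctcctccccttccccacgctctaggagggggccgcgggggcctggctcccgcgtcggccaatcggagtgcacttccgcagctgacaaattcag
Fos: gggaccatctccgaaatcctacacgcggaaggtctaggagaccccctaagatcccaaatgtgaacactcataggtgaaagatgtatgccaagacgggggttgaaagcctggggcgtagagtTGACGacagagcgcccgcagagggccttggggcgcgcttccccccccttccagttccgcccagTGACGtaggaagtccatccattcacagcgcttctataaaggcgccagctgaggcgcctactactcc
Junb held 1 match and Fos 2, and neither held the palindrome TGACGTCA. Of 32851 promoter windows of this length, 17.8% held at least 1 TGACG, 3.9% at least 2 and 1.55% the palindrome. A match to these letters is a description of the sequence and not a bound site.

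Junb, which encodes a partner of Fos in AP-1, lies at chr8:84974484-84978718 on GRCm38. It read 220, 261 and 245 normalized counts in Control Sal and 150, 182 and 138 in Control PTZ0. In CBP-ifKO it read 122, 149 and 178 in Sal and 105, 131 and 94.6 in PTZ0. The groups did not overlap in Control and overlapped by a single library pair in CBP-ifKO. The fitted difference was -0.54 on the log2 scale (SE 0.12, 95% interval -0.77 to -0.31, DESeq2 adjusted p = 0.0729), with -0.63 in Control and -0.44 in CBP-ifKO. Over 22 alternatives the adjusted p ran from 3.06e-05 to 1, and 5 of them called Junb. Junb overlaps Prdx2 on the other strand, and Prdx2 had a log2 fold change of 0.01.

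Fos, its partner in AP-1, read 28.1, 28.3 and 62.4 in Control Sal and 23.7, 31.6 and 24.8 in Control PTZ0. In CBP-ifKO it read 26.9, 33.2 and 34 in Sal and 13.4, 13.4 and 15.8 in PTZ0, with no overlap. Its log2 fold change was -0.83 (SE 0.25, 95% interval -1.32 to -0.33, adjusted p = 1), and -0.62 without Control Sal replicate 3, the Sal library with the highest value. After renewed PTZ the same gene read 2915 and 2483 in Control PTZ45 and 163, 250 and 288 in CBP-ifKO PTZ45, values given beside the others without a test because those libraries would be compared with the same Sal libraries.

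Arc, which encodes a synaptic protein that drives AMPA receptor uptake, read 707, 802 and 1011 in Control Sal and 669, 684 and 663 in Control PTZ0, all 3 lower. In CBP-ifKO the values of 569, 712 and 780 in Sal and 723, 561 and 500 in PTZ0 overlapped. Arc differed by -0.27 (SE 0.10, unadjusted p = 0.00934, adjusted p = 1). The orphan nuclear receptor Nr4a1 differed by -0.31 and its relative Nr4a3 by 0.16 in the opposite direction. Egr1 differed by -0.20 and the growth arrest gene Btg2 by -0.17. The intervals of Fosb (-0.69 to 0.28), Npas4 (-0.69 to 0.41) and Egr2 (-0.45 to 1.02) were wide, and these genes had means of 24.1, 40.6 and 11.1.

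Ptgs2, the inducible cyclooxygenase, was on the other side of 0. It read 393, 390 and 385 in Control Sal and 418, 433 and 460 in Control PTZ0, and 295, 276 and 291 in CBP-ifKO Sal and 329, 349 and 334 in CBP-ifKO PTZ0. The PTZ0 values were above the Sal values in both genotypes, by 0.19 on the log2 scale (SE 0.06, unadjusted p = 0.00174, adjusted p = 1).

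**Figure D2:**
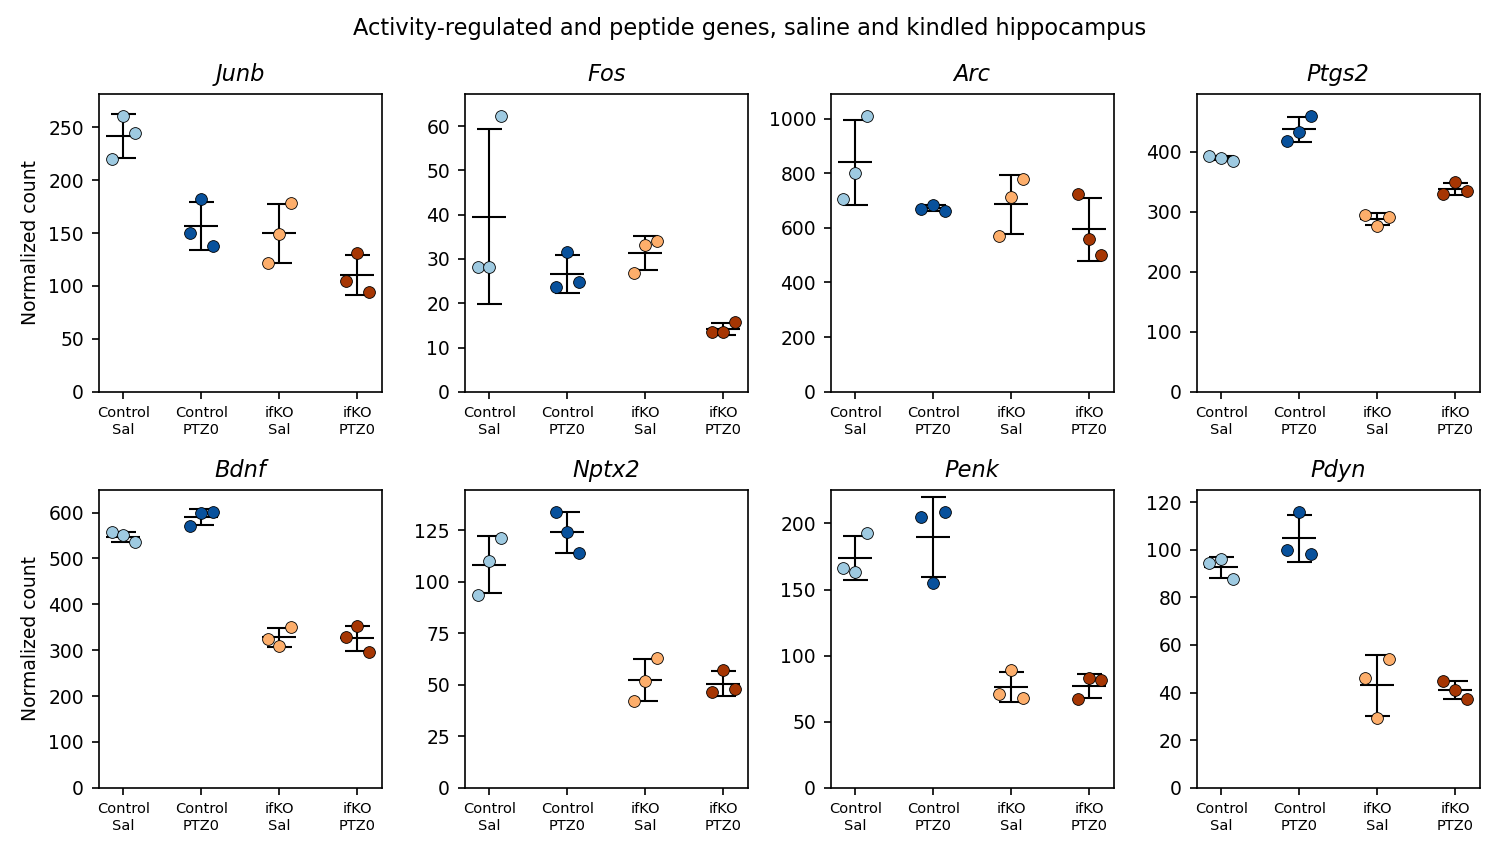
Normalized counts (vertical axis) of Junb, Fos, Arc, Ptgs2, Bdnf, Nptx2, Penk and Pdyn in the Sal and PTZ0 groups of each genotype (horizontal axis, ifKO for CBP-ifKO). Points are libraries and bars the mean and SD. Junb was lower in every Control PTZ0 library than in Control Sal, whereas Penk overlapped in both genotypes.

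Genes of the later response differed little. All 15 listed were measured, 11 were above 0 (53.0% of all genes were) and the median was 0.04. At an unadjusted p under 0.05, 1 was higher and 1 lower, against 0.945% and 1.34% of all genes averaging 10 or more counts. Acvr1c, an activin receptor, read 677, 627 and 638 in Control Sal and 791, 670 and 766 in Control PTZ0, and 413, 409 and 342 in CBP-ifKO Sal and 444, 507 and 423 in CBP-ifKO PTZ0. It was higher by 0.22 (SE 0.07, unadjusted p = 0.0014, adjusted p = 1), without overlap in CBP-ifKO only. Vgf, the precursor of secreted growth peptides, read 485, 518 and 460 in Control Sal against 485, 425 and 448 in PTZ0, and 356, 357 and 422 in CBP-ifKO Sal against 331, 298 and 263 in PTZ0. It was lower by -0.22 (SE 0.08, unadjusted p = 0.00545), and the CBP-ifKO groups did not overlap.

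Transcripts of growth factors and opioid peptides were close to their Sal level. Bdnf, the growth factor that binds TrkB, read 557, 550 and 535 in Control Sal and 570, 600 and 602 in Control PTZ0, and 324, 309 and 350 against 329, 352 and 297 in CBP-ifKO. Bdnf differed by 0.05, with a 95% interval of -0.07 to 0.17, although the 3 Control PTZ0 values were above the Control Sal values. For Nptx2, a pentraxin that clusters AMPA receptors, it was 0.11 (-0.16 to 0.38). The opioid precursors Penk and Pdyn gave 0.11 (-0.12 to 0.33) and 0.04 (-0.24 to 0.32). Homer1 gave 0.01 (-0.08 to 0.11).

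Among the 22 neuropeptide genes listed, 16 were measured and 10 were below 0, against 47.0% of all genes averaging 10 or more counts. The median was -0.05 (0.04 within Control and -0.12 within CBP-ifKO). Of them, 1 was lower at an unadjusted p under 0.05, as were 1.34% of all such genes. Leaving out 1 library at a time moved that median between -0.08 without Control Sal replicate 3 and 0.01 without CBP-ifKO PTZ0 replicate 3. That gene was Pnoc, which encodes nociceptin, at -0.49 (SE 0.19, unadjusted p = 0.00774). Npy, a peptide of interneurons that dampens excitation, read 239, 217 and 245 in Control Sal and 257, 293 and 269 in Control PTZ0, all higher. In CBP-ifKO it read 204, 309 and 314 in Sal and 236, 284 and 197 in PTZ0, and these overlapped. The interaction of genotype and kindling was -0.41 for Npy (unadjusted p = 0.0751, adjusted p = 1). Sst differed by -0.06, Cck by -0.08 and Vip by -0.04. Of the 13 processing and granule genes the median was 0.00 with 2 lower at an unadjusted p under 0.05, Vgf and Pcsk1n. The latter, an inhibitor of prohormone convertase 1, differed by -0.35 (SE 0.13), and unfiltered edgeR called it (adjusted p = 0.0354). Cpe, a carboxypeptidase that trims peptides, differed by 0.07 and the amidating enzyme Pam by 0.05. None of the 19 measured peptide receptors had an unadjusted p under 0.05.

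Synaptic genes were close to their Sal level. The median was -0.01 over 49 genes of excitatory synapses, 0.01 over 27 of inhibitory synapses, 0.02 over 33 of transmitter release and -0.01 over 46 ion channels. At an unadjusted p under 0.05, the excitatory list had 3 lower and 1 higher gene, the inhibitory list 0, the release list 2 higher and the channels 2 higher and 1 lower. Of all genes averaging 10 or more counts, 1.34% were lower and 0.945% higher at that threshold. Dlgap3, a scaffold that links PSD-95 to Shank, read 1306, 1338 and 1327 in Control Sal and 1293, 1058 and 1031 in Control PTZ0, without overlap, and 942, 1233 and 1088 against 1080, 936 and 778 in CBP-ifKO, with overlap. It was lower by -0.22 (SE 0.08, unadjusted p = 0.00653, adjusted p = 1), beside its relative Dlgap4 at -0.17 and the metabotropic receptor Grm4 at -0.35. DESeq2 called 0 genes in these lists, whereas unfiltered edgeR called Dlgap3 (adjusted p = 0.0113) and Shank1, another scaffold (-0.23, adjusted p = 0.00796), both lower. By DESeq2 Shank1 was at -0.14 without Control Sal replicate 3 and -0.15 without CBP-ifKO Sal replicate 2. Grik4, a high affinity kainate receptor subunit, was at 0.14.

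Of the release genes, Nsf, the ATPase that takes apart SNARE complexes, read 12260, 12119 and 12673 in Control Sal and 13214, 12975 and 12908 in Control PTZ0, and 9820, 10267 and 10712 against 11145, 10969 and 10542 in CBP-ifKO. It was higher by 0.08 (SE 0.03, unadjusted p = 0.0072) and synapsin 2, Syn2, by 0.10 (SE 0.04). The potassium channel genes Kcnq5 and Kcnd3 were each at 0.10 and Kcnt1 at -0.15. Gad1, which makes GABA, was at 0.06 (unadjusted p = 0.0675). Among trophic and matrix genes, Gfra2, a co-receptor of neurturin, did not overlap in either genotype. It read 181, 206 and 198 in Control Sal against 155, 169 and 180 in PTZ0, and 112, 149 and 118 in CBP-ifKO Sal against 108, 100 and 85.2 in PTZ0, a log2 fold change of -0.26 (SE 0.10, unadjusted p = 0.00906, adjusted p = 1). Tnc, an extracellular matrix glycoprotein, was at 0.27 (SE 0.11).

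Glial markers lay near 0. The medians were -0.01 for 20 astrocyte, -0.02 for 20 microglial, -0.03 for 20 myelin and -0.05 for 14 oligodendrocyte precursor genes, and every interval of these 4 lists lay within 1.5-fold. With 1 library left out at a time the microglial median ran from -0.06 to 0.05 and the myelin median from -0.08 to 0.02. Fgfr3, an astrocyte receptor, was the only gene of these 4 lists with an unadjusted p under 0.05, at -0.14. Gfap, the filament protein that astrocytes make more of when reactive, read 2424, 2758 and 2138 in Control Sal against 2618, 2154 and 2493 in PTZ0, and 1856, 2268 and 2380 in CBP-ifKO Sal against 2120, 2126 and 2030 in PTZ0. The groups overlapped in both genotypes and the log2 fold change was -0.03 (95% interval -0.17 to 0.11). Cx3cr1, the fractalkine receptor of microglia, differed by 0.03 and Mbp, the basic protein of myelin, by -0.12 (unadjusted p = 0.0774).

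Genes of glial activation had wider intervals. Of 20 reactive astrocyte genes, 16 were measured, with a median of 0.04 and 0 at an unadjusted p under 0.05, and of 20 genes of microglial activation 11 were measured, with a median of 0.05 and 0. When single libraries were left out the medians ran from -0.04 to 0.09 for the former and 0.03 to 0.1 for the latter. Serpina3n, a protease inhibitor of reactive astrocytes, read 309, 325 and 284 in Control Sal and 363, 348 and 458 in Control PTZ0, without overlap. In CBP-ifKO it read 110, 135 and 159 in Sal and 158, 133 and 122 in PTZ0, with overlap. Serpina3n differed by 0.21 in log2 units (95% interval -0.01 to 0.43). Cd68, a lysosomal protein of phagocytes, read 57.7, 39.4 and 40.7 in Control Sal and 64.1, 58.6 and 60 in Control PTZ0, and 42.9, 37.4 and 50.3 against 53.6, 62.1 and 42.6 in CBP-ifKO, for 0.32 (95% interval -0.01 to 0.64). Of 92 glial genes averaging 50 or more counts, 88 had an interval within 1.5-fold, as had 107 of 108 synaptic and 36 of 37 peptide genes.

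**Figure D3:**
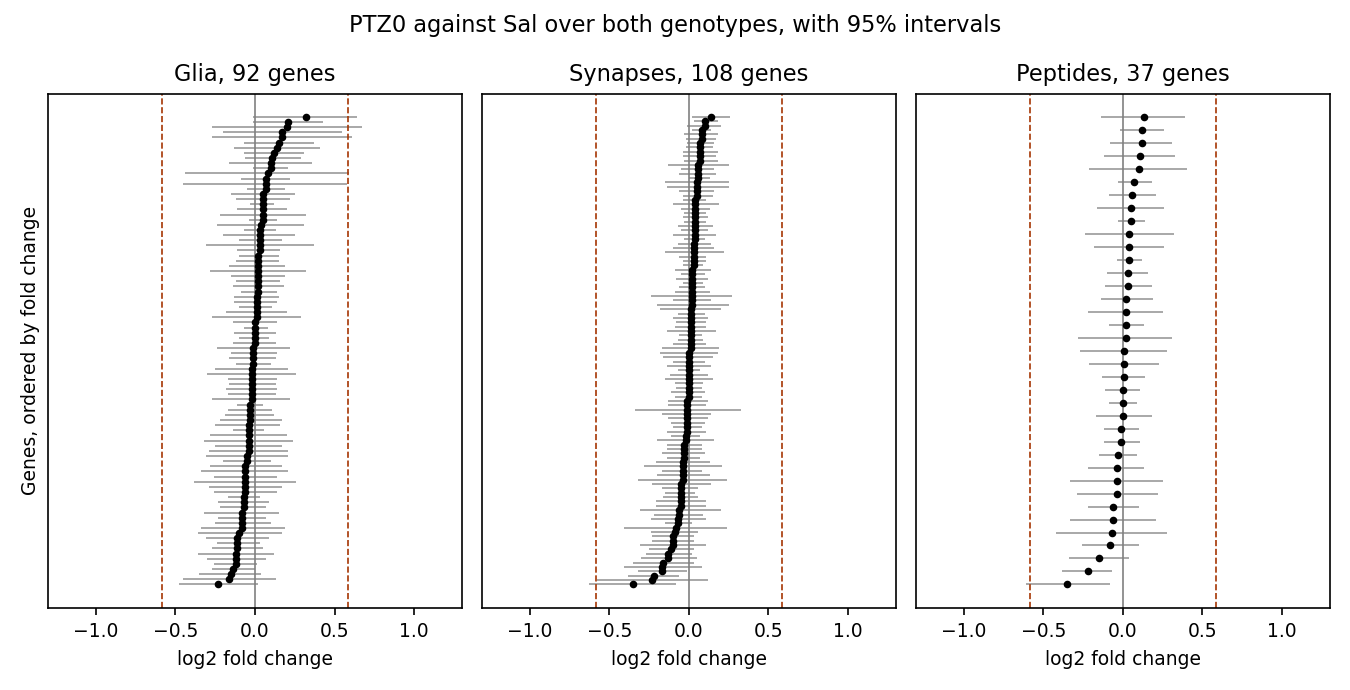
Log2 fold changes of PTZ0 against Sal (horizontal axis) with 95% intervals for genes averaging 50 or more normalized counts in the glial, synaptic and peptide lists, ordered by value. The dashed lines mark 1.5-fold. The fitted values span -0.23 to 0.32 in glia, -0.35 to 0.14 at synapses and -0.35 to 0.13 for peptides.

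Of 17 glucocorticoid response genes, which follow the hormone released in stress, 14 (82.4%) were below 0, against 47.0% of all genes averaging 10 or more counts. Their median was -0.13 (-0.08 in Control and -0.11 in CBP-ifKO, and -0.08 without CBP-ifKO Sal replicate 1). Mt1 at -0.20 and Hif3a at -0.33 had an unadjusted p under 0.05, where 1.34% of all such genes were lower. Unfiltered edgeR called Mt1 alone of them (adjusted p = 0.0359). Of 18 circadian clock genes, 13 were below 0, the median was -0.05 (-0.06 to -0.02 when single libraries were left out), and 0 had an unadjusted p under 0.05. All 5 blood genes were below 0, with a median of -0.27. Among them Hbb-bs, a beta globin, read 601, 696 and 766 in Control Sal against 647, 520 and 672 in PTZ0, and 678, 581 and 694 in CBP-ifKO Sal against 514, 461 and 484 in PTZ0. It was at -0.29 (SE 0.08, unadjusted p = 0.000561, adjusted p = 1, and 0.000482 in unfiltered edgeR) and overlapped in Control only. Markers of CA1 pyramidal cells had a median of -0.05, with the transcription factor Pou3f1 at -0.30 (SE 0.11, unadjusted p = 0.00855, and an adjusted p of 0.0423 in unfiltered edgeR).

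In lists of vascular cells, other neurons and basic cell functions DESeq2 called 0 genes, and the medians given here lay within 0.07 of 0 over all 12 libraries. Unfiltered edgeR called Dcn, a fibroblast proteoglycan, higher (adjusted p = 0.0169) and Uqcrq, of respiratory complex III, lower (adjusted p = 0.0108). Endothelial markers had a median of 0.07 over 14 genes, with Itm2a, a membrane protein of vessels, at 0.18 and the glucose transporter Slc2a1 at -0.14, both with an unadjusted p under 0.05. Mural cell and fibroblast genes had a median of 0.07 over 13 and interferon genes 0.06 over 16, with 0 at that threshold. Both medians turned on single libraries: the former was 0.20 without CBP-ifKO Sal replicate 1 and -0.09 without CBP-ifKO PTZ0 replicate 3, and the latter 0.12 without Control Sal replicate 1 and -0.03 without CBP-ifKO PTZ0 replicate 3. Interneuron markers had a median of 0.02 over 16, dentate granule cell markers -0.01 over 10 and genes of newborn neurons 0.06 over 10, again with 0. Cholesterol synthesis genes were at 0.04 over 20, heat shock genes at 0.03 over 16 and genes of the unfolded protein response at 0.04 over 19, with 0 each. Ribosomal protein genes had a median of -0.03 over 77, with 1 higher and 3 lower at an unadjusted p under 0.05, and the nuclear genes of the respiratory chain -0.02 over 90, with 3 lower. Of all genes averaging 10 or more counts, 0.945% were higher and 1.34% lower at that threshold. With 1 library left out at a time the medians ran from -0.05 to 0.04 for dentate granule cell markers, -0.04 to 0.01 for ribosomal protein genes and -0.04 to 0.02 for the respiratory chain, so none of these had a stable sign.

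Small nucleolar RNAs (snoRNAs), which mostly lie in introns and guide the chemical modification of ribosomal RNA, mostly had log2 fold changes below 0, and DESeq2 called 0 of them. This class, its C/D and H/ACA divisions, the scaRNAs, the snRNAs and the division of the histones into H4 and others were all chosen after their values had been seen, so none of their counts is independent support for another. C/D box snoRNAs direct methylation and H/ACA box snoRNAs pseudouridylation. Sequences of 5 of those with the largest differences or the lowest unadjusted p are printed from the GRCm38 genome, 5′ to 3′. In the H/ACA box RNAs the capitals mark ACA, and in the C/D box RNAs TGATGA and CTGA. Their positions are chr12:91573430-91573572 for Gm25776, chr8:126944847-126944980 for Gm26397 and chr17:24719676-24719803 for Snora78, all on the minus strand, and chr11:106500993-106501062 for Snord104 and chr11:62603079-62603150 for Snord49b, both on the plus strand.
Gm25776: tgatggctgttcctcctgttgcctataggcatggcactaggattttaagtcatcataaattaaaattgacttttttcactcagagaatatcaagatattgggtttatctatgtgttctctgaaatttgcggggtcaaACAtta
Gm26397: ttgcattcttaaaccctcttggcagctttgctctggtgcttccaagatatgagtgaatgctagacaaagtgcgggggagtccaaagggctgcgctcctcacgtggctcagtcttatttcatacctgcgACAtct
Snora78: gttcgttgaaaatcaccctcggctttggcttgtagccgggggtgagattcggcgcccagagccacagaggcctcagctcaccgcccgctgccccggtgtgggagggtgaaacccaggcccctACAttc
Snord104: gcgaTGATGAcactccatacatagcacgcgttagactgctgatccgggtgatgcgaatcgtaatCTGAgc
Snord49b: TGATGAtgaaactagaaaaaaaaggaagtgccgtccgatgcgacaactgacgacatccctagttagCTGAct
A snoRNA was put in the C/D class when TGATGA stood in its first 20 and CTGA in its last 20 bases, and in the H/ACA class when ACA stood 3 bases before its end. By this rule 309 of 1507 annotated snoRNA genes were C/D, 272 H/ACA and 926 neither.

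Of 77 snoRNAs averaging 10 or more counts, 62 (80.5%) were below 0, against 47.0% of all genes at that level, and the median was -0.22, with -0.24 in Control and -0.19 in CBP-ifKO. At an unadjusted p under 0.05, 15 were lower and 0 higher, where 1.34% of all genes at that level were lower and 0.945% higher. The H/ACA class had 29 of 32 (90.6%) below 0 and the C/D class 20 of 26 (76.9%). Of 11 scaRNAs, which guide modification in Cajal bodies, 10 were below 0 (median -0.24), and of 27 snRNAs 21 were (median -0.17). The snoRNA median was -0.10 without Control Sal replicate 1 or without CBP-ifKO Sal replicate 3, and -0.33 without the 4 libraries rich in choroid plexus. The scaRNA median was -0.14 with the GC correction, and also -0.14 without CBP-ifKO Sal replicate 3. By library, the median log2 difference of the snoRNAs from the Sal mean of their genotype was 0.27 in Control Sal replicate 1 and 0.25 in CBP-ifKO Sal replicate 3, -0.24 to -0.03 in the other 4 Sal libraries, and -0.34 to -0.13 in the 6 PTZ0 libraries, so the groups overlapped.

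A few other structural RNAs are given as values, chosen after those values had been seen, and DESeq2 on all 12 libraries gave each an adjusted p of 1, whereas unfiltered edgeR called all of them lower. Rny3, a Y RNA, read 15026 in Control Sal replicate 1 and 4815 to 9108 in the other 11 libraries, with a log2 fold change of -0.46 (SE 0.22, unadjusted p = 0.0415). Rny1 was at -0.35, and without Control Sal replicate 1 Rny3 was at -0.25 and Rny1 at -0.20. Rpph1, the RNA of RNase P, was at -0.40. The 5.8S copy n-R5-8s1 was at -1.01 and the mitochondrial mt-Rnr1 at -0.27, and without Control Sal replicate 3 they were at -0.62 and -0.18. DESeq2 called n-R5-8s1 lower in the fit of CBP-ifKO libraries alone (-0.83, adjusted p = 0.000526), where lane and kindling cannot be told apart. Over both genotypes DESeq2 called it lower without Control Sal replicate 2 (-1.21, adjusted p = 0.0187). Of the 62 genes called by unfiltered edgeR, 23 were small or structural RNAs, all lower. The part of RNA handling or library preparation in these differences was not tested.

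Gm26397, an H/ACA RNA that lies within Tomm20 on the same strand, read 454, 362 and 485 in Control Sal and 333, 329 and 292 in Control PTZ0, and 305, 498 and 435 in CBP-ifKO Sal against 289, 281 and 228 in PTZ0. Every PTZ0 value was below every Sal value of its genotype. It was lower by -0.53 in log2 units (SE 0.11, DESeq2 adjusted p = 0.0612), with adjusted p from 1.39e-10 to 1 over 22 alternatives, 7 of which called it. Gm25776, within Gtf2a1, read 778, 595 and 766 in Control Sal and 584, 649 and 578 in Control PTZ0, which overlapped. In CBP-ifKO it read 628, 649 and 668 in Sal against 469, 395 and 501 in PTZ0, which did not. It was lower by -0.37 (SE 0.08, adjusted p = 0.0729). The host genes Tomm20 and Gtf2a1 were at 0.10 and -0.03.

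Snord49b read 147, 55.4 and 45.2 in Control Sal and 34.2, 26.9 and 59 in Control PTZ0, where 1 value of 59 lay within the Sal range. In CBP-ifKO it read 55.1, 43.6 and 79.1 in Sal and 30.4, 22.9 and 22.9 in PTZ0, with no overlap. The fitted difference was -1.15 (SE 0.28, adjusted p = 0.393). Snora78 was at -0.67 (SE 0.25) and Snord104 at -0.66 (SE 0.30), both with an adjusted p of 1. Gm23935, a short RNA of the miRNA class, read 86.5, 96 and 75.9 in Control Sal against 52.7, 34 and 86.6 in PTZ0, and 68.5, 78.9 and 118 in CBP-ifKO Sal against 52.4, 49.6 and 47.3 in PTZ0, for -0.70 (SE 0.20, unadjusted p = 0.000334). Of 22 alternatives 2 called Gm23935 lower: unfiltered edgeR (adjusted p = 0.00032) and DESeq2 without Control PTZ0 replicate 3 (-0.90, adjusted p = 0.0312).

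Reads on CT010467.1, an annotated ribosomal RNA fragment, numbered 1715, 1348 and 5426 in Control Sal and 1173, 826 and 1428 in Control PTZ0, and 2047, 1637 and 1934 in CBP-ifKO Sal against 833, 817 and 1118 in PTZ0. CT010467.1 differed by -1.16 (SE 0.33, unadjusted p = 0.000412, adjusted p = 1) and -0.76 without Control Sal replicate 3. It was called lower in the DESeq2 fit of CBP-ifKO libraries alone (-1.02, adjusted p = 2.68e-12), where lane and kindling cannot be told apart. Unfiltered edgeR, which did not use the spread of the single gene, called it lower over both genotypes (-1.17, adjusted p = 7.69e-108). Over 22 alternatives its adjusted p ran from that value to 1. Such reads can come from any of many repeated copies.

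The messages of replication-dependent histones end in a stem-loop and mostly lack a poly(A) tail. Of 67 such genes listed, 29 were measured and 23 (79.3%) were below 0, against 47.0% of all genes averaging 10 or more counts. Their median was -0.19 (-0.05 in Control and -0.33 in CBP-ifKO, and -0.12 without CBP-ifKO Sal replicate 3). All 8 of them with an unadjusted p under 0.05 were lower and encode histone H4, where 1.34% of all genes were lower. Of 13 H4 genes listed, 11 were measured and all 11 were below 0, with a median of -0.45 (-0.53 in Control and -0.42 in CBP-ifKO, and -0.53 to -0.39 when single libraries were left out). DESeq2 called 0, and unfiltered edgeR called Hist1h4c (adjusted p = 9.34e-05), Hist1h4d (5.40e-06), Hist1h4h (0.00796) and Hist4h4 (0.0449). By library, the median H4 difference from the Sal mean was -0.34 in Control Sal replicate 3 and -0.40 in CBP-ifKO Sal replicate 1 and ran from -0.71 to -0.21 in PTZ0, so the groups overlapped. The other 18 measured replication histones had a median of -0.09, with 0.00 in Control and -0.22 in CBP-ifKO, -0.03 without CBP-ifKO Sal replicate 3 and -0.04 without CBP-ifKO PTZ0 replicate 1, and 0 at an unadjusted p under 0.05. Hist1h4h read 200, 234 and 151 in Control Sal against 145, 142 and 146 in PTZ0, and 131, 156 and 204 in CBP-ifKO Sal against 111, 147 and 103 in PTZ0, a difference of -0.44 (SE 0.13, unadjusted p = 0.00114, adjusted p = 1). Hist1h4c was at -0.47, Hist4h4 at -0.37 and Hist1h4d at -0.45. The Control groups of Hist1h4h did not overlap and those of CBP-ifKO did. H4 genes are near-identical copies, so reads may be split among them or dropped, and the single genes are uncertain.

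**Figure D4:**
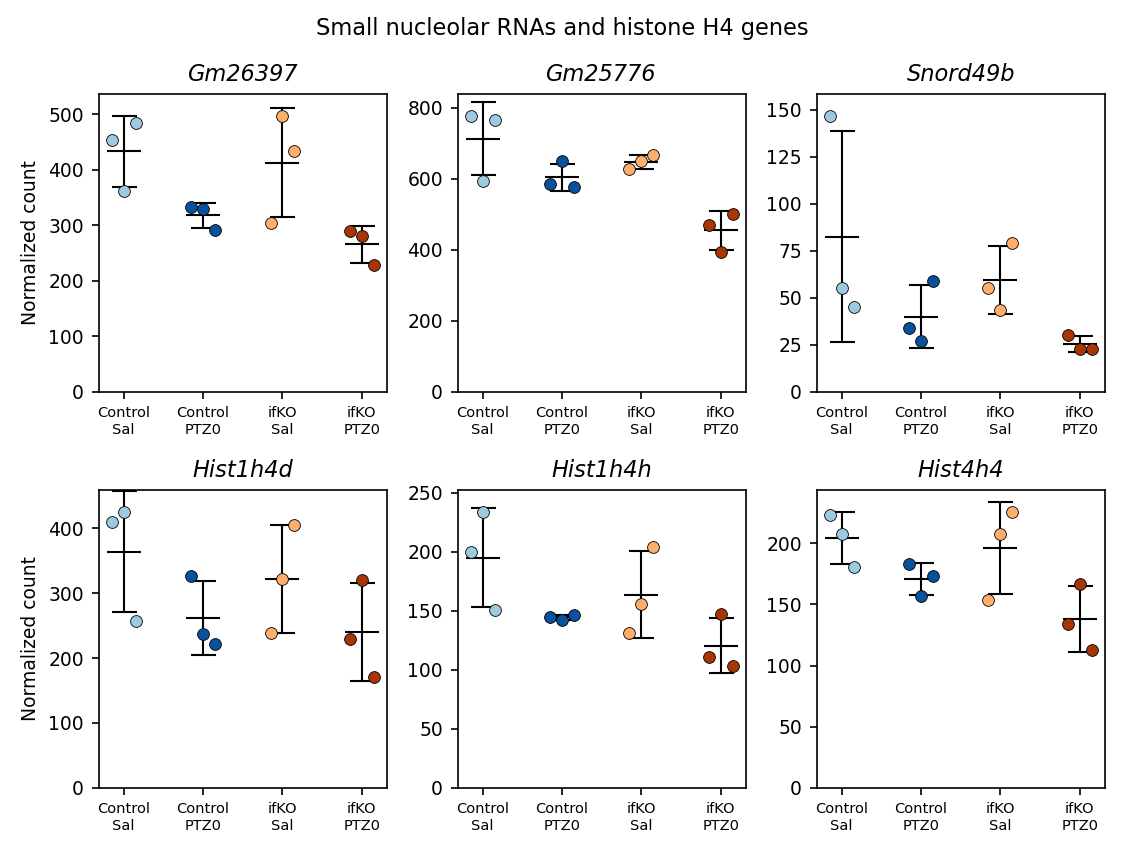
Normalized counts (vertical axis) of Gm26397, Gm25776, Snord49b, Hist1h4d, Hist1h4h and Hist4h4 by group (horizontal axis, ifKO for CBP-ifKO), with a point for each library and bars for the mean and SD. The 6 Gm26397 values of PTZ0 lie between 228 and 333, and each is below the Sal values of its own genotype.

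Among the genes higher in PTZ0, Arhgap35, which encodes a GTPase activating protein of axons, had the lowest unadjusted p. It read 3570, 3713 and 3753 in Control Sal, 3807, 3874 and 3899 in CBP-ifKO Sal, 4148, 3989 and 4101 in Control PTZ0 and 4135, 4048 and 3999 in CBP-ifKO PTZ0. Every PTZ0 value was above every Sal value, by 0.11 on the log2 scale (SE 0.03, unadjusted p = 0.000261, adjusted p = 1). Other genes that the rule for named genes gives were Zfp943 (0.19), Trim28 (0.14), Ttc3 (0.09), Ptbp3 (0.14), 2810459M11Rik (0.26) and Adarb2 (0.12), with Acvr1c and Ptgs2 described above. Trim28 is a corepressor that silences retroelements and Ttc3 encodes a ubiquitin ligase.

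Of the lower genes, Mpc1, a subunit of the mitochondrial pyruvate carrier, did not overlap in either genotype. It read 123, 108 and 97.6 in Control Sal against 95.7, 83.2 and 78.1 in PTZ0, and 99.9, 118 and 94.6 in CBP-ifKO Sal against 82.8, 69.7 and 71.8 in PTZ0, for -0.40 (SE 0.12, unadjusted p = 0.000819). Irf2bpl was at -0.27 (SE 0.08) and Bahcc1 at -0.42 (SE 0.12), and both overlapped in CBP-ifKO only. All of these had a DESeq2 adjusted p of 1, and unfiltered edgeR called Bahcc1 lower (adjusted p = 0.0103).

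The trace of kindling was also asked for within each genotype and for its dependence on genotype. Within Control 0 of 38110 genes were called (0%) and 179 had an unadjusted p under 0.05 (0.470%), 70 higher (0.184%) and 109 lower (0.286%). Within CBP-ifKO 0 (0%) were called and 236 had an unadjusted p under 0.05 (0.619%), 93 higher (0.244%) and 143 lower (0.375%). The interaction called 0 of 38110 genes (0%), with 141 at an unadjusted p under 0.05 (0.370%). Its median SE was 0.17, and the interval lay within 1.5-fold for 73.1% of the genes averaging 50 or more counts. For the others the interval reached beyond 1.5-fold. Of the 141 genes, 60 (0.157%) had a log2 fold change that was more positive in CBP-ifKO than in Control and 81 (0.213%) one that was more negative.

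The 5 leading genes with a more positive log2 fold change in CBP-ifKO than in Control were Snx11 (0.41), Ldhd (0.89), Gm37573 (0.48), Cpne7 (0.29) and Prune2 (0.39), and the 5 with a more negative one were 2310022B05Rik (-0.61), Lrrk2 (-0.29), Pcdhb4 (-0.67), Unc13c (-0.45) and Spg7 (-0.33), in log2 units of the interaction. The sign does not give the size within a genotype: Ldhd, for example, was at -0.92 in Control and -0.03 in CBP-ifKO. Snx11, a sorting nexin of endosomes, read 316, 318 and 308 in Control Sal against 269, 280 and 262 in PTZ0, and 255, 247 and 284 in CBP-ifKO Sal against 315, 314 and 277 in PTZ0. The Control groups did not overlap, the CBP-ifKO groups did, and the interaction had an SE of 0.16 (unadjusted p = 0.00994, adjusted p = 1). Lrrk2, a large kinase, read 890, 835 and 787 in Control Sal against 897, 966 and 871 in PTZ0, and 1002, 944 and 902 in CBP-ifKO Sal against 835, 868 and 830 in PTZ0. All 3 CBP-ifKO PTZ0 values were below those of CBP-ifKO Sal, while the Control groups overlapped.

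Because the genotypes share no library, their differences can be set side by side. Of the 13089 genes, 7281 (55.6%) had the same sign in both. Of 63 genes lower in Control at an unadjusted p under 0.05, 49 (77.8%) were also below 0 in CBP-ifKO, and of 37 higher genes 23 (62.2%) were also above 0. Of 91 lower in CBP-ifKO, 67 (73.6%) were below 0 in Control, and of 67 higher genes 51 (76.1%) were above. The Spearman correlation of the log2 fold changes across genes was 0.11, a description over genes that are not independent. The share with the same sign was 53.8% after correction for GC content and 53.2% without the libraries rich in choroid plexus. The log2 fold change itself correlated with the GC content of a gene at -0.25 over 13082 genes, and the median GC content was 55.3% among 181 lower genes and 45.1% among 139 higher ones against 49% for all. The part of GC content in the differences was not tested beyond that correction, under which 0 genes were called.

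**Figure D5:**
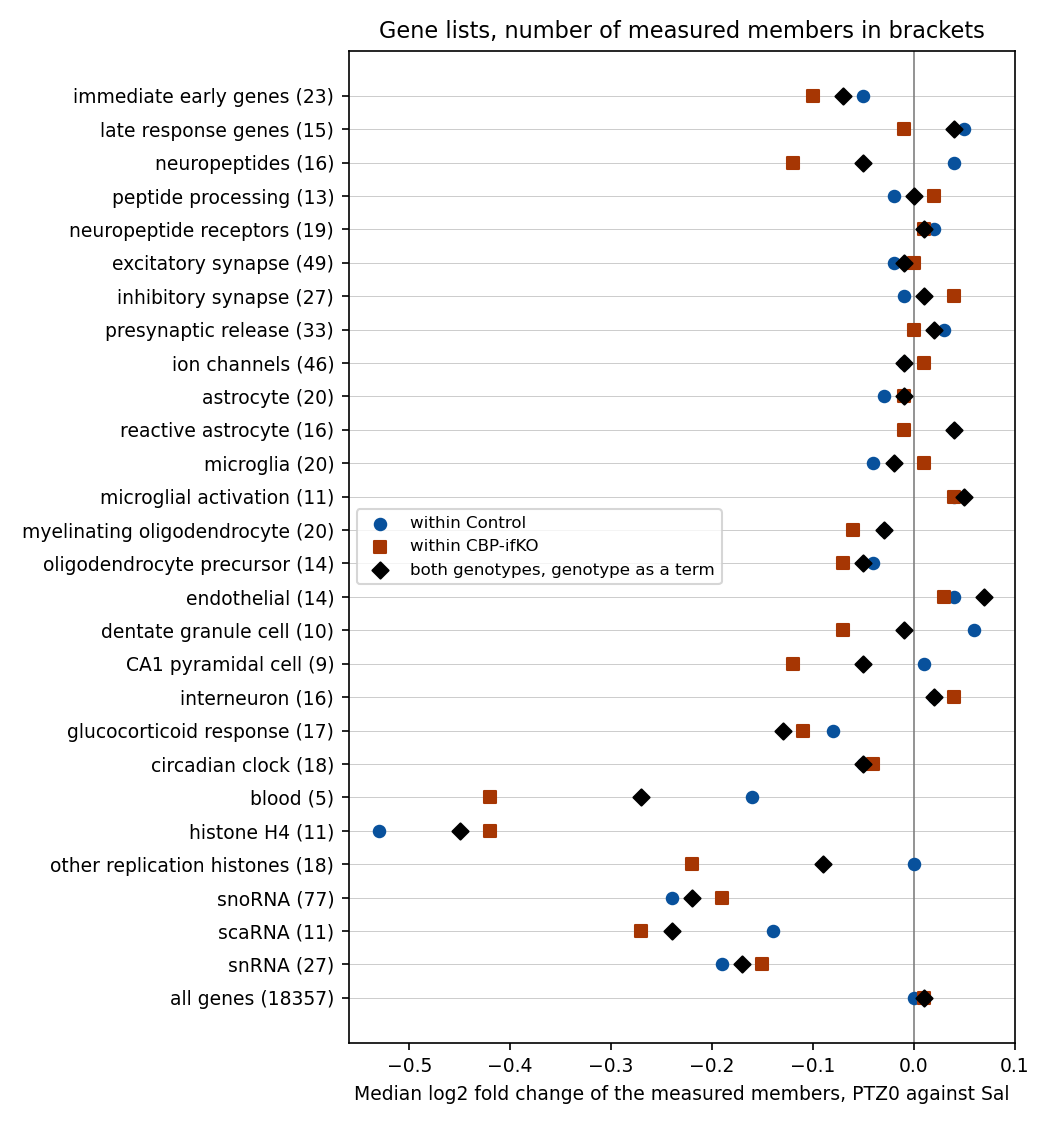
Median log2 fold change of PTZ0 against Sal (horizontal axis) for the measured members of each list (vertical axis, number in brackets) within Control, within CBP-ifKO and over both with genotype as a term. Most lists stay near 0, whereas histone H4, snoRNA, scaRNA, snRNA and blood genes lie at -0.17 or below over both genotypes.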

How the data were processed

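Total RNA of single hippocampi was sequenced by the authors as single-end reads of 50 bases. The authors trimmed reads with Trim Galore 0.6.4, aligned them with STAR 2.6.1 to GRCm38, kept reads with a mapping quality over 10 and counted them on Ensembl exons with Rsubread. The deposited values are raw counts per gene, whole numbers that the authors had not normalized. The strand setting was not given in the sources used here. Of 55471 genes listed, 38141 had a count in any of the 12 libraries, and 1 column of counts that matched no sample was not used. Symbols, positions and GC content came from GENCODE M21 on the same build (99.6% of identifiers matched), and promoters from RefSeq on GRCm38.p6. Replicates of a group differed by more than counting noise (chi-square per degree of freedom at least 2.31).

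The main test was the two-sided Wald test of DESeq2 1.42.0 in R 4.3.3 (the study used DESeq2 1.30.1), with genotype as a term, Benjamini-Hochberg adjustment, independent filtering and a threshold of 0.05. The interaction and the contrasts within genotypes came from a fit with a genotype by kindling term. Printed counts were divided by size factors of all 17 libraries, and intervals are 95%. Members, lists and tests were chosen with earlier results of these data known. Lists are given by counts and medians over genes averaging 10 or more counts. The text names the genotype check genes, 10 genes taken from the study, the 10 genes per direction with the lowest unadjusted p for kindling and 5 per direction for the interaction among genes averaging 50 or more counts, and up to 4 members per list in the same order (called genes would have come first). Any other gene was chosen after its values were seen. Some genes that the rule gives are not reported here.

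Alternatives were the edgeR 4.0.16 quasi-likelihood test, TMM size factors, a count filter (10 counts or more in 2 libraries), 1 surrogate variable (sva 3.50.0), a GC correction (loess span 0.5), the replicate number as a block, a fit of all 17 libraries, each genotype alone, and leaving out each library. Added after the data had been seen were edgeR with the filter and a fit without the 4 libraries rich in choroid plexus. The fits were tested on simulated data.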

Additional observations from a re-analysis of the deposited data

Results flagged for a closer look

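Single libraries far from the rest of their treatment were looked for in 76 sets of 6 values (Dixon's test at the 95% level, on the gap to the nearest value over the range), and 6 stood out. Chance alone flags about 1 in 20 such sets. The summed choroid plexus markers reached 75201 in CBP-ifKO Sal replicate 1, with 20217 as the next Sal value. CT010467.1, a ribosomal RNA fragment, reached 5426 in Control Sal replicate 3, with 2047 next. Snord49b was at 147 in Control Sal replicate 1, with 79.1 next, and among the PTZ0 libraries at 59 in Control PTZ0 replicate 3, with 34.2 next. Gm23935 was at 86.6 in the same Control PTZ0 library, with 52.7 next. Trim28 was at 1416 in CBP-ifKO Sal replicate 3, with 1273 next, above the lowest PTZ0 values. The gap over range of these sets was 0.76, 0.829, 0.658, 0.686, 0.645 and 0.702. What set these libraries apart was not tested.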

How the results depend on the processing

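For PTZ0 against Sal over both genotypes, the number of called genes moved from 0 to 62 with edgeR, 1 with TMM size factors, 3 with the count filter, 3 with 1 surrogate variable, 3 in Control alone, 4 in CBP-ifKO alone and 3 without the 4 libraries rich in choroid plexus. It was 0 with edgeR and the filter, the GC correction, the replicate block, the block with the GC correction and all 17 libraries. In the unfiltered edgeR fit the prior degrees of freedom were infinite, so every gene received the spread of the trend, and with the filter they were 7.98. For the interaction edgeR called 47 genes and the other alternatives 0. Within Control edgeR called 65. Within CBP-ifKO edgeR called 31. The 12 choroid plexus markers gave 11 of the 47 calls, 10 of the 65 and 6 of the 31, and 1 library in each group was rich in them. Within CBP-ifKO the surrogate variable called 1 gene and the block with the GC correction 1. Leaving out single libraries gave 0 to 4 calls over both genotypes, 0 to 1 within Control and 0 to 2 within CBP-ifKO. The 4 calls came without Control Sal replicate 2, 3 without CBP-ifKO Sal replicate 1 and 1 each without Control Sal replicate 3, Control PTZ0 replicates 2 and 3 and CBP-ifKO PTZ0 replicate 2. Within Control 1 gene was called without Control Sal replicate 2 or 3 or without CBP-ifKO Sal replicate 1 or 2. Within CBP-ifKO 2 were called without CBP-ifKO Sal replicate 1 and 1 without Control Sal replicate 2 or 3. Of the other values recomputed for named genes and lists, 2250 kept their side of the threshold, 42 became calls (24 of them with edgeR) and 18 moved by more than the spread between replicates. A reversal from a called value could not occur, because the main fit called 0 genes. The cause of the other changes was not tested.

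Replicate numbers did not pair the libraries: 5 of 18 pairs with the same number had correlated deviations above 0.1 (median -0.23), against 19 of 36 pairs with different numbers (median 0.13). With the number as a block 0 genes were called over both genotypes. Depth limits the low genes most, such as Egr2 and Fosb.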

Other observations

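Some genes were present in single libraries and near 0 in the rest, irrespective of treatment. They were chosen after their values were seen. Rps3a3, a ribosomal protein gene copy, read 160 in CBP-ifKO Sal replicate 1, 180 and 184 in Control PTZ0 replicates 1 and 3, 196 in CBP-ifKO PTZ0 replicate 1 and 194 in Control PTZ45 replicate 1, and no more than 2.46 in the other 12 libraries. Gm15920, a processed pseudogene, read 57.9 in Control Sal replicate 3 and 51.6 and 44.9 in CBP-ifKO PTZ0 replicates 2 and 3, and no more than 6.09 elsewhere, with an unadjusted p of 3.95e-05 for the interaction in DESeq2. What set these libraries apart was not tested.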
